A study of Zea mays with 12 samples.

Results

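The 7 genes described here encode enzymes that split sucrose or build starch in maize, and most of them are named for kernel mutants: sus1 (Zm00001d047253), sh1 (shrunken1, Zm00001d045042), sh2 (shrunken2, Zm00001d044129), bt2 (brittle2, Zm00001d050032), wx1 (waxy1, Zm00001d045462), ae1 (amylose extender1, Zm00001d016684) and su1 (sugary1, Zm00001d049753). They were chosen by identifier from the 45577 features of the B73 expression tables, and all 7 were found there. The samples were whole seedlings of the inbred line B73, 14 days old, kept at 28 °C during the 16 h light period and at 25 °C during the 8 h dark period. They comprised 2 m6A-seq samples, 2 polysome profiling libraries and 2 RNA-seq libraries, the last called total RNA below. m6A-seq sequences RNA fragments pulled down by an antibody against the methylated base m6A, and polysome profiling sequences the RNA that carries several ribosomes. Per the labels, the polysome and total RNA libraries were made from polyA RNA, while for the m6A samples no polyA selection is named. The study set out to relate natural variation in m6A to translational status. Its second line, Mo17, uses gene identifiers that the files do not pair with these, so its 6 samples were not used here.

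Sucrose is the form in which maize leaves export carbon. Sucrose synthase, which sus1 and sh1 each encode, splits sucrose into fructose and a nucleotide sugar and feeds cell walls, respiration and, in the kernel, starch. In the kernel's endosperm, ADP-glucose pyrophosphorylase then makes the glucose donor for starch, with sh2 encoding its large subunit and bt2 its small subunit. The granule-bound starch synthase of wx1 makes amylose from that donor, the branching enzyme of ae1 adds branches to amylopectin, and the isoamylase-type debranching enzyme of su1 trims them. Leaves make starch too, in the chloroplasts of the bundle sheath, and store it by day and break it down at night.

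Levels are given in FPKM, which scales fragments by gene length and library size, so that genes can be compared with each other. FPKM carry no depth, so no counting interval is given. The FPKM summed to 916681 and 934245 in the polysome libraries and to 1147928 and 1157671 in the total RNA libraries. Gene models with Zm identifiers held 73.5% and 74.2% of these sums in polysome RNA and 39.4% and 37.9% in total RNA, which bears on every ratio below. A table of RefSeq genes of another maize assembly listed 6 of the 7 symbols, and each of these 6 lay on the chromosome given in the files; ae1 had 2 entries there, of which 1 was on that chromosome, and su1 had none. That table pairs 0 of its 49888 entries with identifiers of the files. The fixed lists of other starch and sucrose genes (36 symbols) and of endosperm, leaf and root markers (14, 9 and 2 symbols) therefore had 0 measured genes each, and the tissue was not checked against its markers here. The labels do not say that replicates came from separate plants, so errors and p-values cover the spread between these libraries, which may be technical. In whole seedlings, fewer cells that use a gene and less of its RNA per cell cannot be told apart.

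The sucrose synthase genes sus1 and sh1 were both among the well expressed genes of the seedling. Any other sucrose synthase gene was not analysed here. The gene sus1 (chromosome 9, 124178172 to 124184872, minus strand, B73 RefGen_v4, as are all coordinates here) had 17.5 and 11.5 FPKM in polysome RNA, against 28.6 and 26.0 FPKM in total RNA. Both polysome libraries lay below both total RNA libraries. Its total RNA level was above that of 95.6% and 95.1% of the Zm gene models. The gene sh1 (chromosome 9, 10906934 to 10912944, plus strand) had 21.8 and 16.5 FPKM in polysome RNA, against 19.1 and 23.3 FPKM in total RNA. The groups overlapped. Its total RNA level was above that of 93.3% and 94.5% of the models. Although named for its kernel phenotype, sh1 was at a level of the same order as sus1 in the seedling: the means were 21.2 ± 2.96 FPKM for sh1 and 27.3 ± 1.79 FPKM for sus1 in total RNA (SD, n = 2 each).

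The genes bt2 and sh2, which encode subunits of ADP-glucose pyrophosphorylase, were at very different RNA levels. The small subunit gene bt2 (chromosome 4, 61315575 to 61321350, plus strand) had 5.75 and 5.84 FPKM in polysome RNA, against 4.74 and 5.32 FPKM in total RNA. The large subunit gene sh2 (chromosome 3, 219979958 to 219989574, minus strand) had 0.0933 and 0.0250 FPKM in polysome RNA, against 0.0332 and 0.0491 FPKM in total RNA. The polysome values of bt2 lay above its total RNA values, while those of sh2 spanned its total RNA values. Library by library, bt2 was 61.7 and 233.3 times as high as sh2 in polysome RNA and 142.7 and 108.3 times as high in total RNA. The spread of these ratios comes mainly from sh2, whose 2 polysome values differed more than its total RNA values did. Other genes for these subunits were not analysed here, so the values do not describe the whole enzyme of the seedling.

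The genes su1, ae1 and wx1, whose enzymes act on the starch polymer, were low or listed at 0. Other genes for such enzymes were not analysed here. The debranching enzyme gene su1 (chromosome 4, 43110569 to 43119167, plus strand) had 0.810 and 0.664 FPKM in polysome RNA, against 1.69 and 0.921 FPKM in total RNA. Its polysome values lay below its total RNA values. The same held for 23.1% of the features tested below, which do not include su1. Total RNA replicate 2 of su1 lay just under the limit of 1 FPKM used here for expression. The branching enzyme gene ae1 (chromosome 5, 172412995 to 172430415, minus strand) was listed at 0 in both polysome libraries, against 0.0430 and 0.0381 FPKM in total RNA. The granule-bound starch synthase gene wx1 (chromosome 9, 23107329 to 23111318, minus strand) was listed at 0 in all 4 libraries. Of the Zm gene models, 34.4% were listed at 0 in all 4, and FPKM tables can hold a 0 where the estimate failed, so it is not read as absence.

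**Figure D1:**
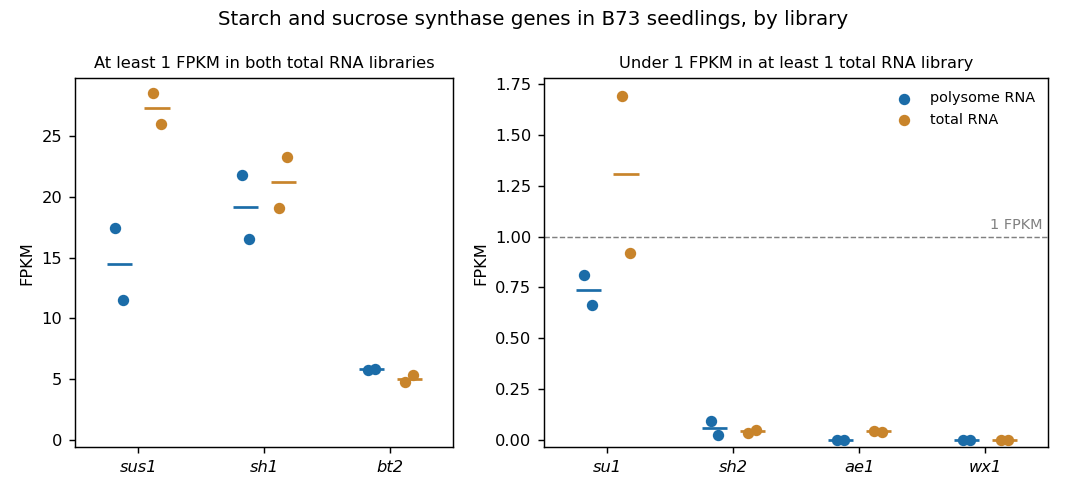
FPKM of the 7 genes in each B73 library (points; polysome RNA left of total RNA) with the mean of the 2 libraries (short lines), on linear scales that differ between the panels. The sucrose synthase genes sus1 and sh1 lie between 11.5 and 28.6 FPKM and bt2 near 5 FPKM, while sh2, ae1 and wx1 lie under 0.1 FPKM in every library.

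The kernel-named genes did not form a single group in the seedling. Taking at least 1 FPKM in both libraries of an assay as expressed, sus1, sh1 and bt2 were expressed, which is 3 of the 7 genes in polysome RNA and in total RNA alike. The same held for 39.4% of the Zm gene models in polysome RNA and 39.3% in total RNA, so this count is near the background. In total RNA the order was sus1, sh1, bt2, su1, sh2, ae1 and wx1, with wx1 last because it was listed at 0. Neighbours in it were separated without overlap of their libraries except sh2 and ae1, whose means were 0.0412 ± 0.0112 and 0.0405 ± 0.00347 FPKM (SD, n = 2 each). In polysome RNA the order began with sh1 at 19.1 ± 3.71 FPKM and sus1 at 14.5 ± 4.24 FPKM (SD, n = 2 each), whose libraries overlapped, so that their order there is not settled. The other neighbours in polysome RNA were separated, apart from wx1 and ae1, both listed at 0. Of the 6 genes named for kernel phenotypes, sh1 and bt2 were thus expressed in the seedling and su1 was at the limit. The genes sh2 and ae1 were far below it, and wx1 was listed at 0.

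Of the 3 expressed genes, sus1 had the lowest ratio of polysome to total RNA. Polysome and total RNA were compared with limma on log2(FPKM + 1) over all 19342 features with at least 1 FPKM in at least 2 of the 4 libraries; sus1, sh1 and bt2 passed this filter and the other 4 genes were not tested. For a call, the p adjusted by Benjamini-Hochberg had to be under 0.05 and the log2 ratio at least 1 in size. Over all tested features 22.0% were called, 16.6% higher and 5.36% lower in polysome RNA, and 0 of the 3 genes were called; 1 of them, sus1, had an unadjusted p under 0.05, as did 49.6% of all tested features. The median log2 ratio was −0.15 over the 3 genes and 0.29 over all tested features, and relative to the median of all features the ratios were −1.19 for sus1, −0.44 for sh1 and −0.12 for bt2. On the log2(FPKM + 1) scale sus1 had a ratio of −0.90 ± 0.23 (SE; limma adjusted p = 0.0216), so its adjusted p was under 0.05, as for 39.2% of all tested features, and its ratio stopped short of the size a call needs. Its 95% interval ran from −1.44 to −0.35, and 4.55% of the tested Zm gene models had a lower ratio. Both of its polysome libraries were below both total RNA libraries, as for 23.1% of the tested features.

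The other expressed genes gave no difference beyond their error. The log2 ratio of sh1 was −0.15 ± 0.21 (SE; limma adjusted p = 0.599, 95% interval −0.64 to 0.35). That of bt2 was 0.18 ± 0.19 (SE; limma adjusted p = 0.501, 95% interval −0.29 to 0.64). These intervals leave room for changes of either sign, so they do not show that the genes were unchanged. The polysome libraries of bt2 both exceeded its total RNA libraries, which 50.1% of the tested features also did. Of the untested genes, su1 had a log2 ratio of −0.39, ae1 of −0.06 and sh2 of 0.02, values that the added 1 pulls towards 0 at such low levels. With a pseudocount of 0.1 in its place they were −0.70, −0.49 and 0.14. The value of su1 rested on total RNA libraries that differed, at −0.15 without total RNA replicate 1 and −0.63 without total RNA replicate 2. That of sh2 was −0.02 without polysome replicate 1 and 0.07 without polysome replicate 2.

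**Figure D2:**
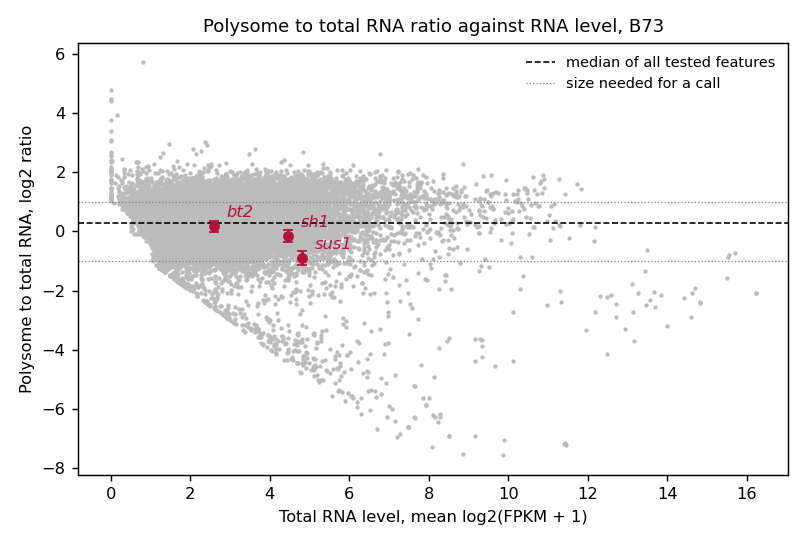
Log2 ratio of polysome to total RNA against the mean log2(FPKM + 1) in total RNA for the 19342 tested B73 features (grey), with sus1, sh1 and bt2 in red (bars, SE from limma). The dashed line is the median of all tested features, 0.29, and the dotted lines mark the size a call needs. All 3 genes lie below the median, and sus1 is close to the lower dotted line.

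Whether sus1 was called depended on the scaling of the libraries. Scaling to the median of log ratios moved the median of all tested features to −0.02, and sus1 then had a ratio of −1.27 and fell (limma adjusted p = 0.00674). Scaling the Zm gene models to equal sums moved that median to −0.19, and sus1 had a ratio of −1.48 and fell (limma adjusted p = 0.00607). The split of all calls moved as well: 1314 features were higher and 1741 lower with median scaling, and 683 higher and 2511 lower with equal sums, against 3220 higher and 1036 lower as deposited. The ratio of sh1 was −0.52 with median scaling and −0.73 with equal sums (limma adjusted p = 0.0547 and 0.0430), and that of bt2 turned negative, to −0.16 and −0.35 (limma adjusted p = 0.495 and 0.229). Without polysome replicate 1 sus1 was called with the deposited scaling too, at −1.18 (limma adjusted p = 0.00426), and without polysome replicate 2 its ratio was −0.61 (limma adjusted p = 0.0258). With no filter on FPKM its adjusted p was 0.0574.

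**Figure D3:**
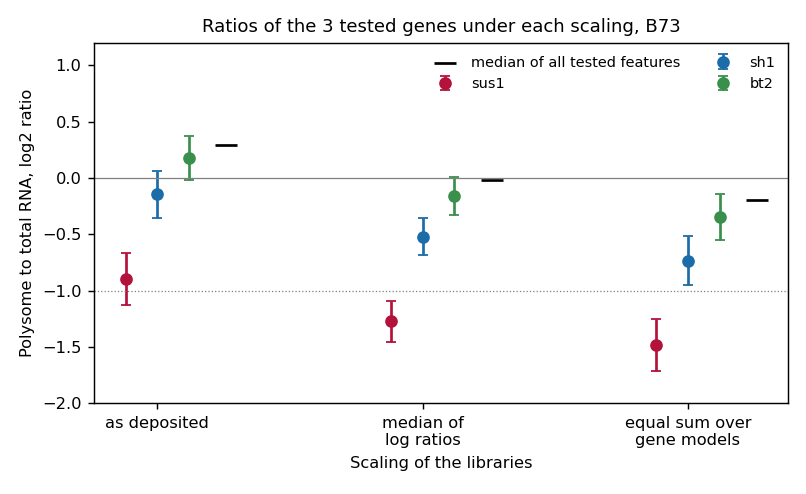
Log2 ratio of polysome to total RNA for sus1, sh1 and bt2 (points; bars, SE from limma) and the median of all tested features (black lines) under 3 scalings of the libraries. The order sus1, sh1, bt2, median holds under each, while sus1 is at −0.90 as deposited and past the dotted line at −1 with the median of log ratios (−1.27) and the equal sum (−1.48).

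Ratios between genes of the same library do not depend on its scaling. The FPKM ratio of sh1 to sus1 was 1.25 and 1.44 in polysome RNA, against 0.669 and 0.895 in total RNA. Thus, of these 2 genes, sh1 was the higher in both polysome libraries and sus1 in both total RNA libraries. The log2 ratio differed by 0.79 between the assays, larger than the spread of 0.15 in polysome RNA and 0.30 in total RNA (SD, n = 2 each). The ratio of bt2 to sus1 was 0.329 and 0.509 in polysome RNA, against 0.166 and 0.204 in total RNA, a log2 difference of 1.15. The ratio of bt2 to sh1 differed by 0.36 in the same direction, again without overlap. Its spread was 0.30 in polysome RNA and 0.08 in total RNA (SD, n = 2 each). These 3 ratios are not separate results, since any 2 of them fix the third. The ratio of sh2 to bt2 overlapped between the assays, with a log2 difference of 0.05. In exact permutation tests over the libraries (two-sided, n = 2 against 2), the first 3 of these 4 pairs gave p = 0.333, the smallest this design allows, and sh2 to bt2 gave p = 1.0; adjusted over the 4 pairs the values were 0.444 and 1.0. The pairs with bt2 and an expressed gene were added after the levels had been seen.

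The genes with m6A peaks were not those with the highest levels. Peaks were counted for a gene if the summit fell inside its span and inside no other. The small subunit gene bt2 and the debranching enzyme gene su1 had a peak in both m6A replicates, sh2 had a peak in replicate 2 alone, and sus1, sh1, wx1 and ae1 had none in either. So 2 of the 7 genes had a peak in both replicates, where 23.1% of all Zm gene models and 50.9% of the expressed ones did. This count is near the share over all models. A peak in a single replicate, as in sh2, was found in 3.22% of all models, and 72.7% of all models and 41.9% of the expressed ones had none. Fold enrichment and −log10 q are the authors' values for each peak and are used here to describe a peak and to place it within its list.

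The peaks of bt2 and su1 sat at the 3′ ends of the genes, with summits no more than 21 bp apart between the replicates. In bt2 the peaks ran from 61321160 to 61321316 and from 61321156 to 61321324, with folds of 17.1 and 12.6 and −log10 q of 36.4 and 28.5. Their summits lay 134 and 113 bp from the 3′ end of the span, 21 bp apart. These folds were above those of 96.7% and 85.2% of the peaks in the lists, and the −log10 q above 95.2% and 84.4%. In su1 the peaks ran from 43118863 to 43119115 and from 43118877 to 43119099, with folds of 11.5 and 15.5 and −log10 q of 17.7 and 25.2. Their summits lay 132 and 131 bp from the 3′ end and 1 bp apart. The folds of su1 exceeded 83.8% and 92.6% of the lists, and the −log10 q 69.2% and 79.7%. The median summit assigned to a gene lay 232 and 215 bp from the 3′ end, so these summits were nearer to the end than most. No exon annotation of this build was used here, so the peaks are not placed in a coding or untranslated part.

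The peak of sh2 was weaker and was found at a level of RNA where peaks are rare. It ran from 219980010 to 219980072, 63 bp wide, with a fold of 8.39 and a −log10 q of 8.47, and its summit lay 80 bp from the 3′ end. Its fold was above that of 60.6% of the peaks in its list, but its −log10 q was above that of 32.8% alone. With peaks of a −log10 q of at least 10, sh2 had none. Among the 1193 Zm gene models that were under 0.1 FPKM in both total RNA libraries and above 0 in at least 1, 1.26% had a peak in a single replicate and 1.09% in both. In polysome RNA, sh2 was above 0 in both libraries, at 0.0933 and 0.0250 FPKM.

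The sucrose synthase genes, which had the highest levels of the 7, had no peak in their spans. Among the Zm gene models with at least 10 FPKM in both total RNA libraries, 42.1% had no peak in either replicate and 51.7% had a peak in both, so the lack of a peak at this level was common. Within 3000 bp of sus1 no peak was listed. Past the 3′ end of sh1, by 1233 bp, a summit lay at 10914177 in both replicates, with folds of 6.09 and 4.73. It fell in the span of Zm00001d045043 (chromosome 9, 10913773 to 10917850, minus strand), 404 bp from the 3′ end of that gene, and was not counted for sh1. The peak lists give no strand. Like wx1, 98.4% of the Zm gene models listed at 0 in both total RNA libraries had no peak. Like ae1, 96.8% of the models under 0.1 FPKM in both total RNA libraries and above 0 in at least 1 had none.

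**Figure D4:**
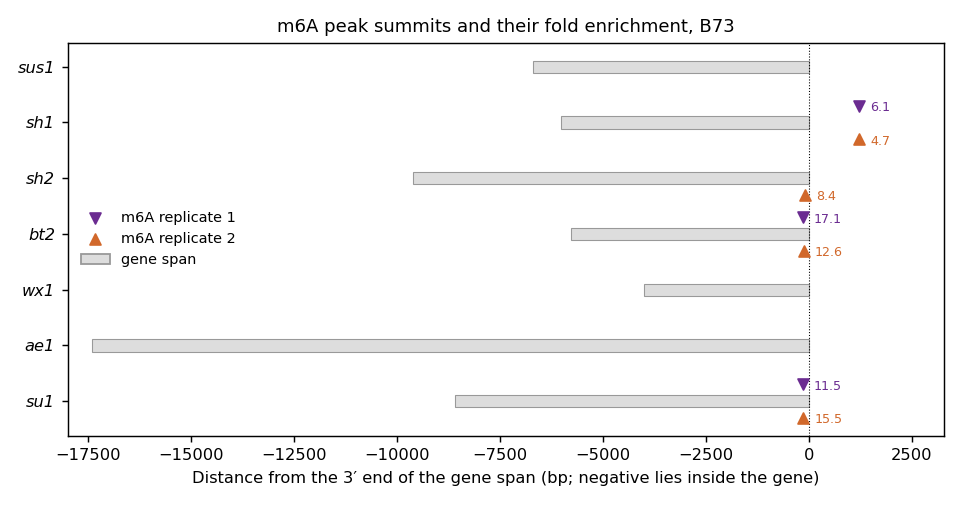
Gene spans (grey bars, aligned at their 3′ ends) and m6A peak summits within 3000 bp of them, with the authors' fold enrichment beside each (triangles down, m6A replicate 1; triangles up, replicate 2). The summits of bt2, su1 and sh2 lie 80 to 134 bp inside the 3′ end; the summits beside sh1 lie 1233 bp past its end, and sus1, wx1 and ae1 have none.

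By level and m6A peaks the 7 genes can be set out in 3 groups, which the polysome ratio did not separate. The groups were drawn from these same values and were not tested. The sucrose synthase genes had high levels and no peak, with log2 ratios of −0.90 and −0.15. The genes bt2 and su1 had a peak at the 3′ end in both replicates. Their total RNA was at about 5 FPKM and about 1 FPKM (means of 5.03 ± 0.409 and 1.31 ± 0.546, SD, n = 2 each). The log2 ratio was 0.18 for bt2. That of su1, which was not tested, was −0.39, or −0.70 with a pseudocount of 0.1. The genes sh2 and ae1 were under 0.1 FPKM throughout and wx1 was listed at 0. Among these genes sh2 alone had a peak, in a single replicate. With 7 genes, 3 of them tested in polysome RNA, no relation between m6A and the polysome ratio was tested.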

How the data were processed

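Per the submitters' processing notes, the authors used Trimmomatic 0.35, HISAT2 and MACS2 with the genome build B73 RefGen_v4; the annotation, the strand setting, the control of the peaks and the program behind the FPKM are not named there. The authors deposited FPKM per gene, 1 table per library. They deposited m6A peaks as 1 list per sample, 17399 and 16161 peaks for B73, with a fold enrichment (a ratio), −log10 p, −log10 q, an integer score and a summit offset per peak; peak starts were read as counted from 0. Among 372 features above 0 and under 0.1 FPKM in both total RNA libraries, the most common ratio between these libraries made up 1.88%. No size of a single read was derived from this, and depth is unknown.

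A feature whose span differed between tables was left out (1 in B73). The polysome libraries were set against the total RNA libraries on log2(FPKM + 1) in limma 3.58.1 under R 4.3.3, with the trend option and 2 residual degrees of freedom; the fit was first tested on simulated data. Other steps used pandas 2.3.3 and scipy 1.17.1. The median of log ratios was taken over features with at least 1 FPKM in all 4 libraries. All 7 genes are named whatever their values; other genes are named only as neighbours within 1000 bp of a span or as the 2 gene models nearest to the highest gene in level. The genes, lists and tests were chosen with earlier results of these data known. The alternatives covered the pseudocount, the filter, the scaling, the trend, a replicate block, each library left out, and the peak threshold and assignment. No sequence is shown, since no genome or sequence table of this build was used here.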

Additional observations from a re-analysis of the deposited data

How the results depend on the processing

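The log2 ratio of sus1 was −1.27 with the median of log ratios and −1.48 with equal sums over Zm gene models, which made the number of called genes 1, and it ranged from −1.18 to −0.61 when each library was left out, with 0 to 1 genes called. The ratio of sh1 ranged from −0.34 to 0.042 across the libraries left out, above 0 without polysome replicate 2, and that of bt2 from 0.11 to 0.24, turning to −0.16 with the median of log ratios and −0.35 with equal sums. The features called higher numbered 1314 and 683 under these scalings and those called lower 1741 and 2511; leaving out a library gave 2471 to 3896 higher and 710 to 1148 lower. With a pseudocount of 1 the sh2 to bt2 difference turned to −0.15, since the added 1 exceeds every value of sh2. Same-numbered polysome and total RNA libraries deviated with a correlation of −0.13 across features. It rests on a single difference between replicates per assay, so it cannot decide whether the numbers mark pairs. The main fit used no pairs. A replicate block changed no call of the 3 genes (sus1 at −0.90, limma adjusted p = 0.00834), nor did the crossed pairing, added after seeing the data (0.0111). The expressed genes numbered 4 at 0.5 FPKM in both assays, through su1, and at 5 FPKM 3 in polysome RNA and 2 in total RNA. Peaks in both replicates were found for bt2 and su1 under the 5 alternatives that used both lists, and with a single list read both had a peak, as sh2 did in replicate 2. Depth is unknown, so values under 0.1 FPKM may rest on few reads.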

Other observations

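The 2 gene models whose levels were nearest to those of sus1 over the 4 libraries, by the root mean square difference in log2(FPKM + 1), were Zm00001d034770 and Zm00001d011060, which the files do not name. Zm00001d034770 (chromosome 1, plus strand) had 15.96 and 11.8 FPKM in polysome RNA, against 25.4 and 26.6 FPKM in total RNA, with a difference of 0.10 from sus1. Zm00001d011060 (chromosome 8, plus strand) had 17.6 and 12.97 FPKM in polysome RNA, against 30.8 and 29.5 FPKM in total RNA, with a difference of 0.13.

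The table also lists genes within 1000 bp of sh1 and ae1. Zm00001d045043, on the other strand, has its 3′ end 828 bp past that of sh1 and holds the m6A summit there. This gene had 18.8 and 10.8 FPKM in polysome RNA, against 6.83 and 7.52 FPKM in total RNA. Zm00001d027054, which ends 956 bp before sh1, was listed at 0 in all 4 libraries. Zm00001d016683, which lies 883 bp past the 3′ end of ae1 on the same strand, had 2.08 and 4.48 FPKM in polysome RNA, against 0.912 and 1.38 FPKM in total RNA. These genes were not compared with sh1 or ae1 by a test.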
